A study of Mus musculus with 4 samples.

Results

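The 50 genes described here are genes of neurons, of the chromaffin cells of the adrenal medulla and of glia, measured in sorted cells of the mouse embryonic kidney. They were listed by name, and the list drew on values of the comparison reported here, Six2GFP-positive against Six2GFP-negative cells. Their differences in that comparison are therefore given as a description, with no test. The arrays held probes under the listed name for 49 of the 50 genes. Map2, which the array lists under the older name Mtap2, was found through its transcript accession, which gave 68 probes in all. A probe was kept where both arrays of 1 group or the other read it well above background, and a gene was read from its brightest kept probe. This left 49 of the 50 genes, among 24150 genes or transcripts in all, and Scg2 had no such probe.

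Kidneys came from E15.5 embryos of a hybrid of 129 and C57BL/6 mice that carried the reporter Six2GFP, which marks nephron progenitors of the cap mesenchyme, the cells that form nephrons. Fluorescence-activated sorting gave GFP-positive cells, 2 samples with genotype Six2GFP(+), and the remaining GFP-negative cells, 2 samples with genotype Six2GFP(-). Total RNA of each sample was labelled with Cy3 and hybridised to 1 array. The labels give neither the allele or promoter that drives the reporter nor how many embryos were pooled, their cell type field reads nephron progenitor for both populations, and their description field speaks of tamoxifen, which no protocol mentions. Nothing states that the 2 samples of a group came from separate litters, so errors cover the spread between these samples only, which may be technical, and the number of arrays limits the precision. An exact two-sided permutation test of 2 arrays against 2 cannot give a p below 0.333.

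Values are log2 signals relative to the 75th percentile of the array, and a difference is the positive mean minus the negative mean with its limma standard error, for n = 2 arrays per group. Six2 separated the populations in the direction of their labels, with 5.58 and 5.74 on the positive and -0.17 and -0.15 on the negative arrays. Between 72.5% and 79.1% of spots were well above background, with the higher shares on the negative arrays, and the median difference over all genes was 0.15. The negative arrays carried more signal of other kidney cells. A list of markers is given as the log2 of its summed signals, which the brightest markers mostly set. For 6 stromal markers it lay at 2.04 to 2.70 on the positive and 6.36 to 6.51 on the negative arrays. For 5 endothelial markers it lay at -2.14 to -2.07 and 2.80 to 2.85. The part of these other cells in the differences of single genes was not tested.

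Nerves enter the kidney along its vessels from sympathetic ganglia, and Schwann cells, the glia of peripheral nerves, wrap their axons. The adrenal gland, whose medulla holds chromaffin cells that make adrenaline, lies against the upper end of the kidney. Many genes first described in neurons code for parts of general machines, such as microtubules, intermediate filaments and vesicle release, and are also expressed in other developing cells. REST, a repressor protein, holds many neuronal genes silent in other cells by binding a DNA element called RE1.

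Promoter sequences are shown for the members that matched RE1, since the groups of genes below include its repressor, and for those with a cAMP response element, the site through which cAMP signalling acts on genes of catecholamine and granule biology. RefSeq windows on GRCm38.p6, from 250 bases before to 50 after a gene's start, were given for 34 of the 50 members. Both strands were searched for the RE1 core, CAGCACC and GGACAG with 2 free bases between them, with up to 2 mismatches, for the left part TTCAGCACC, which overlaps the core by 7 bases, and for the cAMP response element TGACGTCA. The core was found in 1.92% of all 32851 windows, the left part in 0.371% and the cAMP response element in 1.79%. A match is a description of the letters and not a site of binding. Stretches are printed 5′ to 3′ on the strand of the gene, with the match in capitals.
Syn1, RE1 core, chrX:20921114-20921168, minus strand: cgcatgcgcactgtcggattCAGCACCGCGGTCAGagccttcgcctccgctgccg
Prph, RE1 core, chr15:99054982-99055036, plus strand: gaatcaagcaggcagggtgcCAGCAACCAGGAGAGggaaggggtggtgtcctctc
Nlgn1, RE1 left part, chr3:26154111-26154159, minus strand: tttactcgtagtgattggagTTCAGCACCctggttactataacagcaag
Th, cAMP response element, chr7:142900013-142900060, minus strand: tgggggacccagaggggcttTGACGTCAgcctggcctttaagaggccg
Chgb, cAMP response element, chr2:132781550-132781597, plus strand: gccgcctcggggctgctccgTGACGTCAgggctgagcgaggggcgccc
Scg2, cAMP response element, chr1:79440067-79440114, minus strand: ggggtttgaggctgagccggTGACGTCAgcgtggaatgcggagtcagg
The match in Syn1 lay 230 bases upstream of the start with 1 mismatch, and that in Prph 172 bases upstream with 2. The 3 members with an RE1 match shown above had unlike differences: Prph was higher in positive cells (1.39), Syn1 differed by -0.20 and Nlgn1 was lower, with neither positive array well above background. Syn1 and Scg2 held the left part as well, and Syn1 also a cAMP response element. Of the 3 members shown with a cAMP response element none was at least 2-fold apart, as Th and Chgb each differed by 0.14 and Scg2 was not well above background on any array. The median ratio of observed to expected CG, over the highest window of each gene, was 0.696 for the 34 members and 0.415 for all genes with a window. The 34 members had 53 windows, and all 27025 genes had 32851. More windows per gene can only raise the highest, so the 2 medians are not like for like.

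The members did not share 1 direction. Of the 49, 9 were at least 2-fold higher in Six2GFP-positive cells without overlap of the arrays, against 4.05% of all genes, and 14 were at least 2-fold lower by their measured values, against 13.5%. Erbb3 is 1 of the 14 but reaches only 1.77-fold when set against the dimmest detected signal, which leaves 13. Since the values chose the members, nothing is read from these shares. The 9 higher members were Pnmt, Nefl, Nell1, Dcx, Nrxn2, Nefm, Elavl4, Syt4 and Prph. The 14 lower members were Stmn2, Nlgn1, Fabp7, S100b, Gap43, Nlgn3, Syt1, Map2, Erbb3, Chga, Cntn1, Tubb3, Nefh and Scg5. The other 26 differed by under 2-fold or had overlapping arrays, 8 of them higher and 11 lower without overlap and 7 overlapping, against 25.1% of all genes that overlapped. The median difference was -0.20 over the members. At the threshold, Prph (1.39) lay just inside on the higher side and Syt11 (0.53) outside. On the lower side Scg5 (-1.16) lay inside and Syn2 (-0.97) and Nell2 (-0.94) outside. With normexp background correction, which adds an offset and so pulls dim values together, 7 members were at least 2-fold lower with the 75th percentile and 6 with quantile normalization, and 7 were higher with either. The normexp value given beside a gene below is the one with the 75th percentile. In this bulk RNA, fewer cells of a type and less RNA per cell cannot be told apart.

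**Figure D1:**
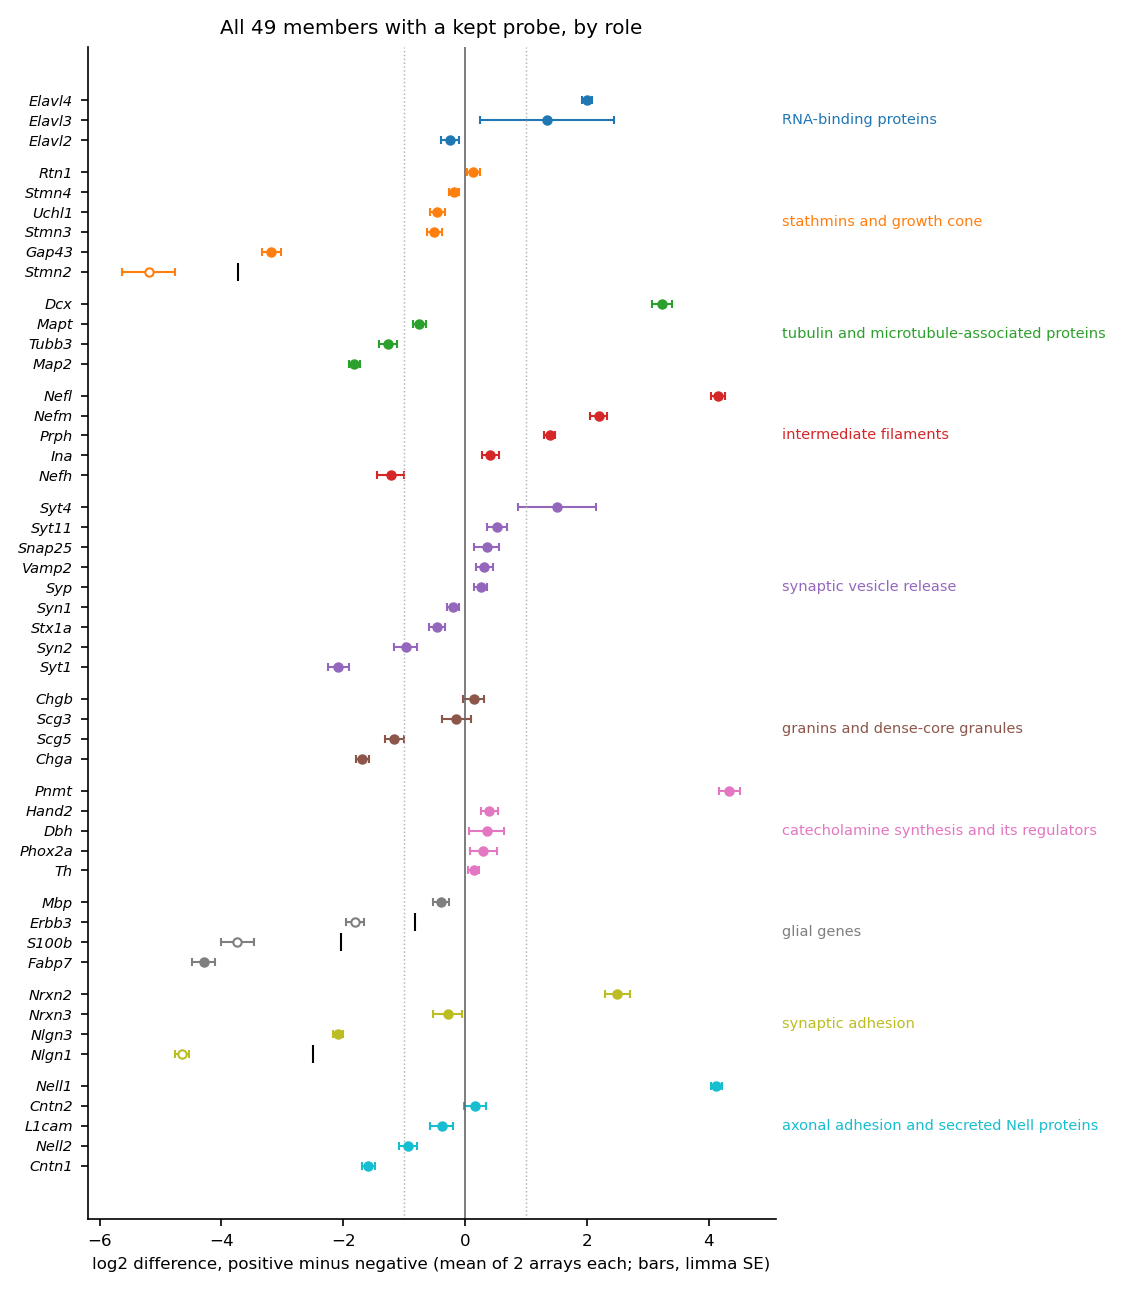
Log2 difference of each of the 49 measured members, positive minus negative, grouped by role, with limma standard errors (n = 2 arrays per group). Dotted lines mark 2-fold, open points are members not well above background on either positive array, and the black tick beside each is its bound. Most role groups hold members on both sides of 0.

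Intermediate filaments, the ropes that give axons their calibre, held the largest share of higher members, 3 of 5. Nefl, the light neurofilament chain, read -1.79 and -1.62 on the positive and -5.92 and -5.78 on the negative arrays. Both positive arrays lay far above both negative ones. The difference was 4.15 ± 0.11, a 17.7-fold higher level (probe at mm9 chr14:68705638-68705698). Nefm, the medium chain, read -3.41 and -3.35 on the positive and -5.42 and -5.73 on the negative arrays, a 4.57-fold higher level (2.19 ± 0.14, chr14:68738193-68738252). With normexp Nefl differed by 2.60 and Nefm by 1.22. Prph, peripherin, a filament of peripheral neurons, was dim, with -5.56 and -5.69 on the positive and -7.01 and -7.03 on the negative arrays. It was 2.62-fold higher (1.39 ± 0.09, chr15:98889042-98889101), but 0.46 with normexp. Ina, alpha-internexin, differed by 0.41 ± 0.14.

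Nefh, the heavy neurofilament chain, went the other way from Nefl and Nefm. It read -6.17 and -5.68 on the positive and -4.54 and -4.87 on the negative arrays, and the groups did not overlap (-1.22 ± 0.22, 2.33-fold lower, but -0.37 with normexp). A further probe of Nefh, 638 bases away on chromosome 11, differed by -0.02 ± 0.38 and was well above background on 1 of 2 positive arrays. The first 30 of the 60 bases of each Nefh probe are printed as the files give them, because their readings part.
Nefh probe at mm9 chr11:4838758-4838817: tccactgaagtccactttcaattgcttcca
Nefh probe at mm9 chr11:4839396-4839455: agcaaacccaagacagaaaaggctgaaaaa
The longest run of bases that any 2 probes of different filament genes shared was 9.

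Tubulin and the proteins that bind microtubules were divided. Dcx, doublecortin, which steadies microtubules in migrating neurons, read -0.23 and -0.46 on the positive and -3.40 and -3.76 on the negative arrays. The positive arrays were 9.41-fold higher (3.23 ± 0.17, chrX:140290854-140290913). Its 2 other probes gave 2.57 ± 0.11 and 2.30 ± 0.76, the last from a probe well above background on 1 of 2 negative arrays. Map2, a microtubule protein of dendrites, read -4.02 and -3.88 on the positive and -2.15 and -2.12 on the negative arrays. It was 3.52-fold lower (-1.82 ± 0.10), and its other probe gave nearly the same difference (-1.79 ± 0.12). With normexp and quantile normalization Map2 differed by -1.19. Tubb3, the neuronal beta tubulin, read -5.72 and -5.58 on the positive and -4.55 and -4.22 on the negative arrays, 2.41-fold lower without overlap (-1.27 ± 0.15, but -0.41 with normexp). Mapt, tau of axons, differed by -0.75 ± 0.11, and its other probes by -0.82 and -0.58.

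RNA-binding proteins of the Elavl family, which stabilise messages in neurons, differed among themselves. Elavl4, or HuD, read 1.74 and 1.67 on the positive and -0.29 and -0.30 on the negative arrays with its brighter probe. The positive arrays were 4.0-fold higher (2.00 ± 0.08). Its other probe, 1103 bases away, read -0.42 and -0.61 on the positive and -5.26 and -5.69 on the negative arrays, a 31.1-fold difference (4.96 ± 0.19). Both probes were higher on both positive arrays, but the sizes of their differences stood 7.77-fold apart, and their mean was 3.48. Their first 30 of 60 bases are printed, since the value of Elavl4 depends on which of them is read.
Elavl4 brighter probe at mm9 chr4:109877455-109877514, minus strand: gggaagaagcatattactgtgtccttctgt
Elavl4 dimmer probe at mm9 chr4:109878558-109878617, minus strand: ctttaccaccttccttgaaggtgggtcttt
Elavl3, or HuC, read -6.66 and -3.60 on the positive and -6.28 and -6.68 on the negative arrays. Positive array 2 alone was high, 8.35-fold above positive array 1, and the groups overlapped. The difference of 1.35 ± 1.10 was -0.18 when positive array 2 was left out and 2.88 when positive array 1 was. With normexp it was 0.68. Elavl2 differed by -0.25 ± 0.15, and by 0.12 ± 0.13 with its other probe.

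**Figure D2:**
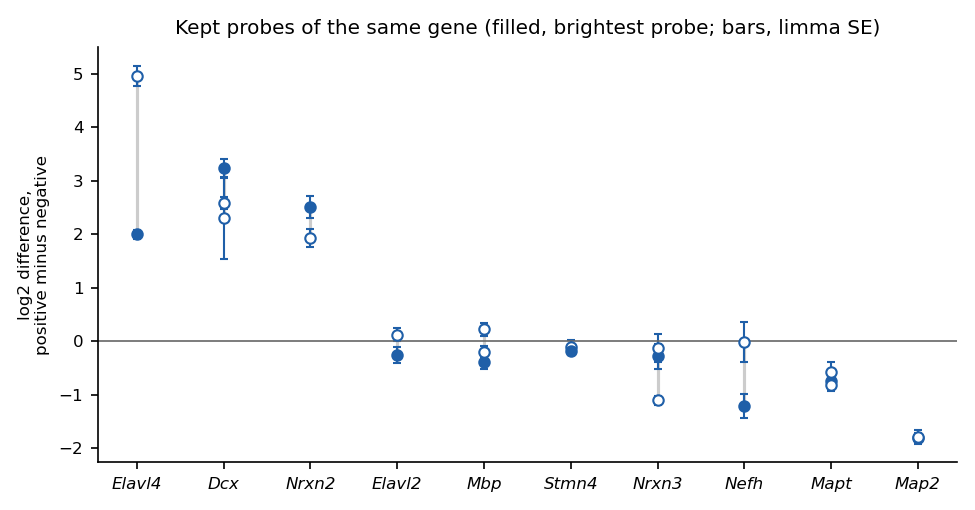
Log2 difference, positive minus negative, of every kept probe of the 10 members with several, with limma standard errors (n = 2 arrays per group); the filled point is the brightest probe, which stands for the gene. Probes lay within 2-fold of each other in 8 genes and further apart in Elavl4 and Nefh.

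Stathmins and growth cone proteins, which act at the tips of growing axons, held no member that was 2-fold higher and 2 of 6 that were lower. Stmn2, a stathmin made almost wholly by neurons, read -9.09 and -7.94 on the positive and -3.18 and -3.46 on the negative arrays. Neither positive array was well above background. For such genes the fold is a bound, taken against the higher of the measured value and the dimmest signal well above background on each positive array, and Stmn2 was at least 13.2-fold lower on this scale, a bound that does not hold for other background corrections (measured means -8.51 and -3.32, -1.54 with normexp, chr3:8561545-8561604). Gap43, a protein of the growth cone membrane, read -3.95 and -4.23 on the positive and -1.02 and -0.80 on the negative arrays. It was 9.06-fold lower and well above background on all 4 arrays (-3.18 ± 0.15, -2.47 with normexp, chr16:42248714-42248773). Stmn3 (-0.50 ± 0.13), Stmn4 (-0.18 ± 0.08), the ubiquitin hydrolase gene Uchl1 (-0.46 ± 0.12) and Rtn1, of the endoplasmic reticulum (0.13 ± 0.11), stayed under 2-fold. The 2 probes of Stmn4 share 44 bases and are not separate measurements.

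Among 9 genes of synaptic vesicle release, 1 was higher, 1 lower and 7 under 2-fold. Snap25, a SNARE protein that fuses vesicles with the membrane, was well above the 75th percentile in both populations, at 2.76 and 2.71 on the positive and 2.64 and 2.12 on the negative arrays (0.36 ± 0.20). Its groups did not overlap, but they differed by less than the negative arrays did from each other. The vesicle membrane genes Syp (0.26 ± 0.11) and Vamp2 (0.31 ± 0.14), the calcium sensor relative Syt11 (0.53 ± 0.16), the membrane SNARE gene Stx1a (-0.46 ± 0.13) and the vesicle tethers Syn1 (-0.20 ± 0.09) and Syn2 (-0.97 ± 0.19) were also measured on all 4 arrays. Syt1, the calcium sensor of fast release, read -5.67 and -5.50 on the positive and -3.70 and -3.31 on the negative arrays. It was 4.23-fold lower without overlap (-2.08 ± 0.17, but -0.93 with normexp). Syt4, a synaptotagmin of dense-core vesicles, read -3.27 and -5.01 on the positive and -5.46 and -5.83 on the negative arrays. Positive array 1 alone stood high, 3.36-fold above positive array 2, and the difference of 1.51 ± 0.64 was 0.63 when positive array 1 was left out and 2.38 when positive array 2 was. With normexp it was 0.82. Elavl3, Syt4 and Stmn2 were the 3 members whose positive arrays differed at least 2-fold, against 2.45% of all genes. The negative arrays differed that much for 0 members, against 2.78% of all genes.

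Enzymes of catecholamine synthesis stood apart from each other. Th, tyrosine hydroxylase, the first and limiting enzyme, read -1.21 and -1.19 on the positive and -1.27 and -1.41 on the negative arrays (0.14 ± 0.09). The groups were next to each other without overlap. Dbh, which makes noradrenaline, read -5.42 and -6.16 on the positive and -6.27 and -6.03 on the negative arrays, with overlap (0.36 ± 0.29). Pnmt, the last enzyme, which turns noradrenaline into adrenaline, read -0.85 and -1.01 on the positive and -5.08 and -5.47 on the negative arrays. It was 20.3-fold higher, the largest upward difference among the members' brightest probes (4.34 ± 0.17, 3.08 with normexp, chr11:98248798-98248857). The regulators Phox2a (0.30 ± 0.22) and Hand2 (0.40 ± 0.14), transcription factors of sympathetic precursors, stayed under 2-fold. Of 8 chromaffin markers, 7 were well above background on both positive arrays. The log2 of the summed signals of the chromaffin list was 0.10 to 0.19 on the positive and -0.65 to -0.64 on the negative arrays. The gap between the groups rests on Pnmt. Th, Chgb, Phox2a and Dbh stayed under 2-fold, and Chga (-1.69) and Slc18a1 (-1.03) were lower in positive cells. Of 8 adrenal cortex markers, 6 were well above background on both positive and 7 on both negative arrays. Nr0b1 was 3.17-fold higher in positive cells. Cyp11a1 was well above background on both negative and neither positive array, and was at least 3.38-fold lower in positive cells. Hsd3b1 was well above background on no array, and the other markers differed by under 2-fold. The log2 of the summed signals of these 8 was -0.09 to 0.0026 on the positive and -0.43 to -0.22 on the negative arrays.

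Granins, which pack the dense-core granules of chromaffin and endocrine cells, did not share the direction of Pnmt. Chga, chromogranin A, read -5.69 and -5.56 on the positive and -4.01 and -3.86 on the negative arrays. It was 3.22-fold lower without overlap (-1.69 ± 0.11, but -0.70 with normexp). Chgb gave -4.57 and -4.89 on the positive and -5.01 and -4.74 on the negative arrays, which overlapped (0.14 ± 0.17). Scg5, a chaperone of the granule protease PCSK2, read -2.25 and -2.21 on the positive and -1.26 and -0.88 on the negative arrays, 2.23-fold lower (-1.16 ± 0.16). Scg3 differed by -0.15 ± 0.24 with overlapping arrays. Scg2 read -9.17 and -8.94 on the positive and -8.05 and -8.75 on the negative arrays, none of them well above background, and was not tested.

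Glial genes held no member that was 2-fold higher, and 3 of 4 were at least 2-fold lower by their measured values, among them Erbb3, whose bound is under 2-fold. Fabp7, a fatty acid binding protein of glial precursors, read -6.48 and -6.07 on the positive and -2.12 and -1.84 on the negative arrays. It was 19.6-fold lower (-4.29 ± 0.19, -2.40 with normexp, chr10:57508039-57508098). S100b, a calcium binding protein of Schwann cells, read -8.39 and -9.12 on the positive and -4.99 and -5.04 on the negative arrays. Neither positive array was well above background, and S100b was at least 4.09-fold lower (-0.61 with normexp, chr10:75723783-75723842). Erbb3, the neuregulin receptor of Schwann cells, read -7.90 and -8.15 on the positive and -6.35 and -6.10 on the negative arrays, at least 1.77-fold lower and likewise dim on both positive arrays (-0.14 with normexp). Mbp, of myelin, differed by -0.39 ± 0.13, and its other probes by 0.22 and -0.20. Of 8 Schwann cell markers, S100b, Erbb3, Foxd3 and Cdh19 were not well above background on either positive array. The log2 of the summed signals of the list was -0.85 to -0.84 on the positive and -0.57 to -0.56 on the negative arrays. Fabp7, S100b and Erbb3 of this list are members.

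Adhesion molecules of synapses and axons gave some of the widest differences in both directions. Nrxn2, a presynaptic neurexin, read 1.71 and 1.82 on the positive and -0.99 and -0.47 on the negative arrays. It was 5.64-fold higher (2.50 ± 0.21, chr19:6533156-6533215), and its other probe gave 1.93 ± 0.17. Both listed neuroligins, partners of neurexins on the receiving cell, were lower, while Nlgn2, which is no member, was higher by 0.45 ± 0.10 (limma adjusted p = 0.032). Nlgn1 read -9.30 and -9.10 on the positive and -4.48 and -4.62 on the negative arrays, and neither positive array was well above background (at least 5.63-fold lower, -0.75 with normexp, chr3:25330886-25330945). Nlgn3 read -4.81 and -4.75 on the positive and -2.71 and -2.68 on the negative arrays, 4.24-fold lower without overlap (-1.27 with normexp). Nrxn3 differed by -0.29 ± 0.23 with overlap, and of its other kept probes 1 gave -0.13 and 1, which neither positive array read well above background, was at least 1.52-fold lower.

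Nell1 and Nell2, secreted proteins with epidermal growth factor-like repeats, differed from each other. Nell1 read 2.79 and 2.67 on the positive and -1.39 and -1.40 on the negative arrays. It was 17.4-fold higher (4.12 ± 0.09, chr7:58118540-58118599), and the arrays of each group lay close together. Nell2 differed by -0.94 ± 0.15. Cntn1, a contactin of axons, read -2.08 and -2.25 on the positive and -0.62 and -0.54 on the negative arrays, 3.0-fold lower (-1.59 ± 0.10). Cntn2 (0.16 ± 0.18, overlapping) and L1cam (-0.38 ± 0.19), which guide axons, stayed under 2-fold.

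**Figure D3:**
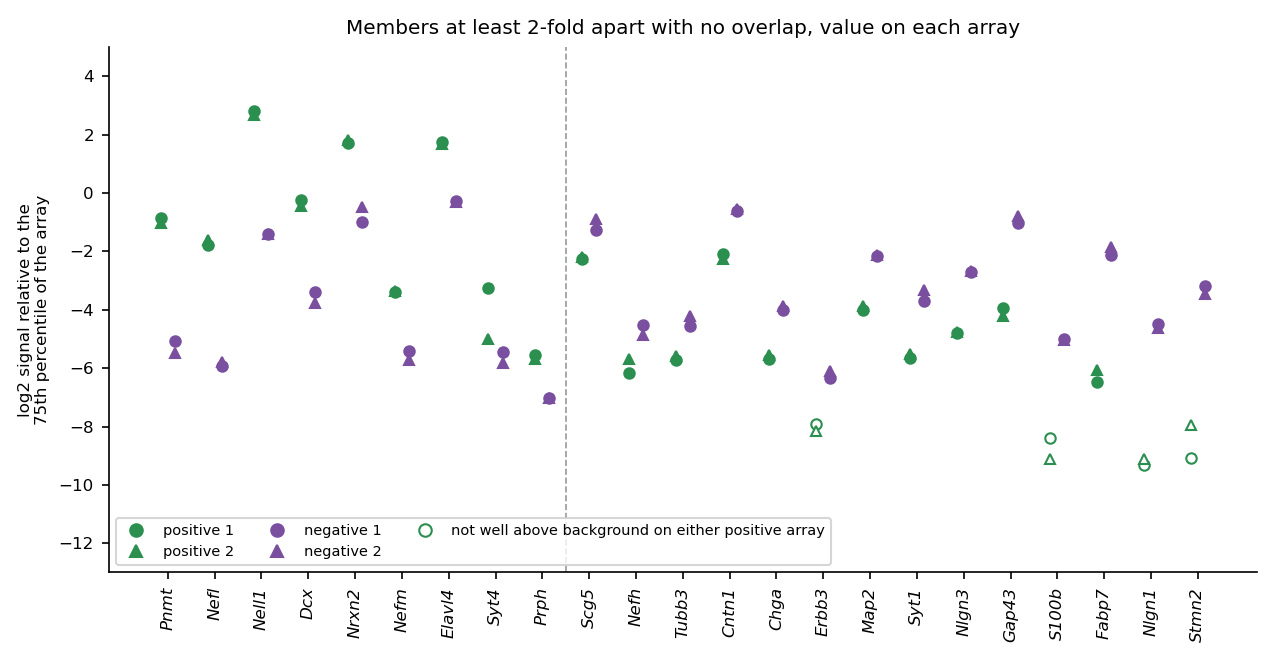
Log2 signal relative to the 75th percentile of the array, on each of the 4 arrays, for the 23 members at least 2-fold apart by their measured values without overlap, including Erbb3, whose bound is 1.77-fold; left of the dashed line are the 9 that were higher in positive cells. Open symbols were not well above background on either positive array, and the 2 positive arrays stand apart most in Syt4 and Stmn2.

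A probe well above background on all 4 arrays was found for 45 of the 50 members, among them glial Fabp7 and neuronal Gap43. On single arrays 72.5% to 79.1% of all spots were well above background. The share of all genes detected on all 4 was not counted, so nothing particular to the members is read from this. Stmn2, Nlgn1, S100b and Erbb3 were the 4 members well above background on the negative arrays and on no positive array. No member was well above background on the positive arrays alone by its brightest probe. The log2 of the summed signals of 8 neuron markers was 3.31 to 3.36 on the positive and 2.58 to 2.96 on the negative arrays. This sum rests mostly on the signals of Snap25 and Elavl4. All 8 are members, chosen with these values known, so the sum is no separate evidence on cell types. Of the same 8, Gap43, Syt1, Tubb3 and Stmn2 were lower in positive cells, and Stmn2 was on neither positive array. Whether a few neurons or glia in either sort add to these values was not tested.

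Genes outside the list, in 5 lists of related function, were tested with limma and Benjamini-Hochberg adjustment over all 24150 genes, of which 38.9% passed an adjusted p of 0.05, 20.7% higher and 18.3% lower. Of the genes that passed, 53.1% were higher, against 74.2% with centring on the array median, 40.7% without a filter on dim probes and 29.2%, 28.7%, 39.2% or 28.7% without positive array 1, positive array 2, negative array 1 or negative array 2, which left 5006, 4485, 5213 or 4368 genes past the threshold in place of 9402. A fit with 1 array left out has 1 group of a single array, which is assumed to vary like the other group. Of 61 other neuronal genes, 15 were higher, 22 lower and 24 not past the threshold, with a median of -0.03. Snap91 (3.20 ± 0.22, adjusted p = 0.0021) and Amph (2.79 ± 0.13, adjusted p = 9.2e-04), adaptors of vesicle uptake, and the calcium sensor Syt7 (3.04 ± 0.31, adjusted p = 0.0051) were higher. The adhesion genes Chl1 and Cntn6, which neither positive array read well above background, were at least 11.3-fold and 10.66-fold lower (adjusted p = 5.6e-04 and 0.012). Centring on the array median gave 23 higher and 17 lower. The count of higher genes in this list was 6, 4, 11 or 8 without positive array 1, positive array 2, negative array 1 or negative array 2, and Cntn6 lost its call without negative array 1 (adjusted p = 0.0645) or 2 (0.0682).

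Sympathoadrenal genes that are no members were lower or not past the threshold. Of 18 tested, 11 were lower and 0 higher in limma, with 1 higher at an unadjusted p under 0.05, and the median was -0.78. With the replicate number as a block 1 was higher and 9 were lower, and centring on the array median gave 3 higher and 9 lower. The transcription factor genes Gata3 (-5.15 ± 0.38), Tfap2a (-4.75 ± 0.27) and Gata2 (-4.34 ± 0.31) differed most (adjusted p = 0.0024, 0.0013 and 0.0021); all 3 are also expressed in kidney epithelium of the bud or distal tubule. Gch1, which makes the cofactor of Th, differed by -2.23 ± 0.11 (adjusted p = 9.2e-04), and Slc18a1, the amine transporter of chromaffin granules, by -1.03 ± 0.21 (adjusted p = 0.028). Ddc, the enzyme between Th and Dbh, differed by 0.72 ± 0.20 (adjusted p = 0.054). Gch1, Slc18a1 and Ddc were chosen after their values were seen.

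Of 24 other glial and Schwann cell genes, 9 were lower and 4 higher, with a median of -0.09. The myelin protein gene Pmp22 differed by -4.40 ± 0.12 (adjusted p = 5.0e-04) and the Wnt and BMP modulator gene Sostdc1 by -3.44 ± 0.52 (adjusted p = 0.014). Dhh, a hedgehog ligand of Schwann cells, was well above background on neither positive array and at least 18.4-fold lower (adjusted p = 0.0014). The glutamate transporter gene Slc1a3 was higher (3.08 ± 0.10, adjusted p = 5.3e-04), as were Moxd1 (1.58 ± 0.14, adjusted p = 0.0038) and Egr2, a regulator of myelin genes (1.05 ± 0.27, adjusted p = 0.048). Sox10, which defines neural crest glia, read -3.46 and -3.70 on the positive and -3.44 and -3.52 on the negative arrays (-0.10 ± 0.12, adjusted p = 0.54), chosen after its values were seen. Centring on the array median gave 8 higher and 8 lower. Without negative array 2 the list held 2 higher genes. Of the 4 fits with 1 array left out, Egr2 kept its call only without positive array 2, with adjusted p-values of 0.0595, 0.132 and 0.168 without positive array 1, negative array 1 and negative array 2. Sostdc1 had 0.0721 and 0.0788 without negative array 1 or 2.

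Repressors of neuronal genes were mostly higher in positive cells: of 20 tested, 12 were higher and 1 lower, with a median of 0.37. Rcor2, a corepressor of REST (1.41 ± 0.09, adjusted p = 0.0018), Ctdspl, a phosphatase of the same pathway (1.26 ± 0.10, adjusted p = 0.0027), and the chromodomain gene Cdyl (1.08 ± 0.10, adjusted p = 0.0039) led. Rest itself read 2.03 and 2.05 on the positive and 1.48 and 1.32 on the negative arrays (0.64 ± 0.10, adjusted p = 0.016), chosen after its values were seen. Ptbp3, a splicing repressor, was lower (-0.98 ± 0.09, adjusted p = 0.0043). With 1 array left out, 3 were higher without positive array 1, 3 without positive array 2, 5 without negative array 1 and 3 without negative array 2, and 4 without a filter on dim probes.

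Neurotrophin, neuregulin and GDNF family genes split evenly, with 6 higher and 5 lower of 20 and a median of 0.29. The receptors Ntrk3 (3.39 ± 0.09, adjusted p = 5.0e-04) and Gfra2 (2.44 ± 0.15, adjusted p = 0.0016) were higher, as was Ntf3, the ligand of Ntrk3 (1.69 ± 0.20, adjusted p = 0.0081). The neuregulin receptor Erbb4 (-4.57 ± 0.27, adjusted p = 0.0014), its ligand Nrg1 (-2.08 ± 0.18, adjusted p = 0.0034) and the GDNF family ligand Artn (-1.67 ± 0.11, adjusted p = 0.0018) were lower. Centring on the array median gave 11 higher and 5 lower. Without negative array 2, 3 genes of the list were higher and Ntf3 had an adjusted p of 0.0586.

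**Figure D4:**
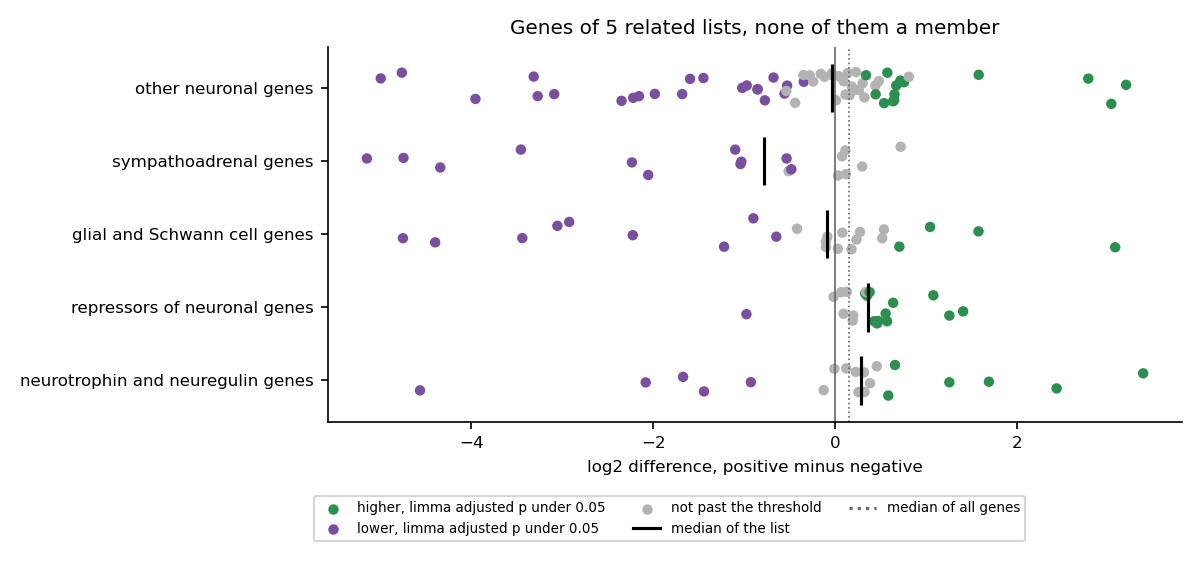
Log2 difference, positive minus negative, of the genes tested in 5 lists that hold no member; green and purple points passed a limma adjusted p of 0.05 and grey points did not. Black bars are list medians and the dotted line is the median of all genes, 0.15; genes not well above background in positive cells are drawn at their measured value.

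Chromosomal neighbours of the 9 higher members, within 100000 bases of their probes on mm9, were looked up after the members' values were known. There were 19 tested genes that are no members, of which 8 were higher, 5 lower and 6 not past the threshold. Of all genes 20.7% were higher and 18.3% lower, and nothing is read from the counts of so few neighbours. Tcap, a gene of muscle sarcomeres 2671 bases from Pnmt, read 0.07 and 0.15 on the positive and -4.97 and -4.75 on the negative arrays. It was higher by 4.96 ± 0.12 (adjusted p = 5.0e-04), while Pgap3, 1259 bases from Pnmt on its other side, differed by 0.36 ± 0.11 (adjusted p = 0.070) and the adaptor gene Grb7, 67818 bases away, was lower by a difference of -4.26 ± 0.13 (adjusted p = 5.1e-04). Nefl and Nefm lie 32555 bases apart. Beside Dcx, Capn6 was higher (2.96 ± 0.13, adjusted p = 8.3e-04) and Pak3 lower (-0.71 ± 0.12, adjusted p = 0.018). Beside Prph, C1ql4 (2.53 ± 0.29, adjusted p = 0.0069) and Gm8973 (0.57 ± 0.09, adjusted p = 0.017) were higher, and Tuba1c (-0.82 ± 0.15, adjusted p = 0.023) and Dnajc22 (-0.72 ± 0.10, adjusted p = 0.010) lower. An unnamed transcript 2270 bases from the Nrxn2 probe was higher (2.95 ± 0.08, adjusted p = 5.0e-04), and Slc22a12, 2928 bases away on the other side, was lower (-3.04 ± 0.25, adjusted p = 0.0032). The dimmer Nrxn2 probe, at chr19:6532125-6532184, lies between the probe of the unnamed transcript and the brighter Nrxn2 probe. Whether that transcript, 1 of the 8 higher genes, is part of Nrxn2 was not tested. No neighbour was tested near Elavl4 or Syt4.

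**Figure D5:**
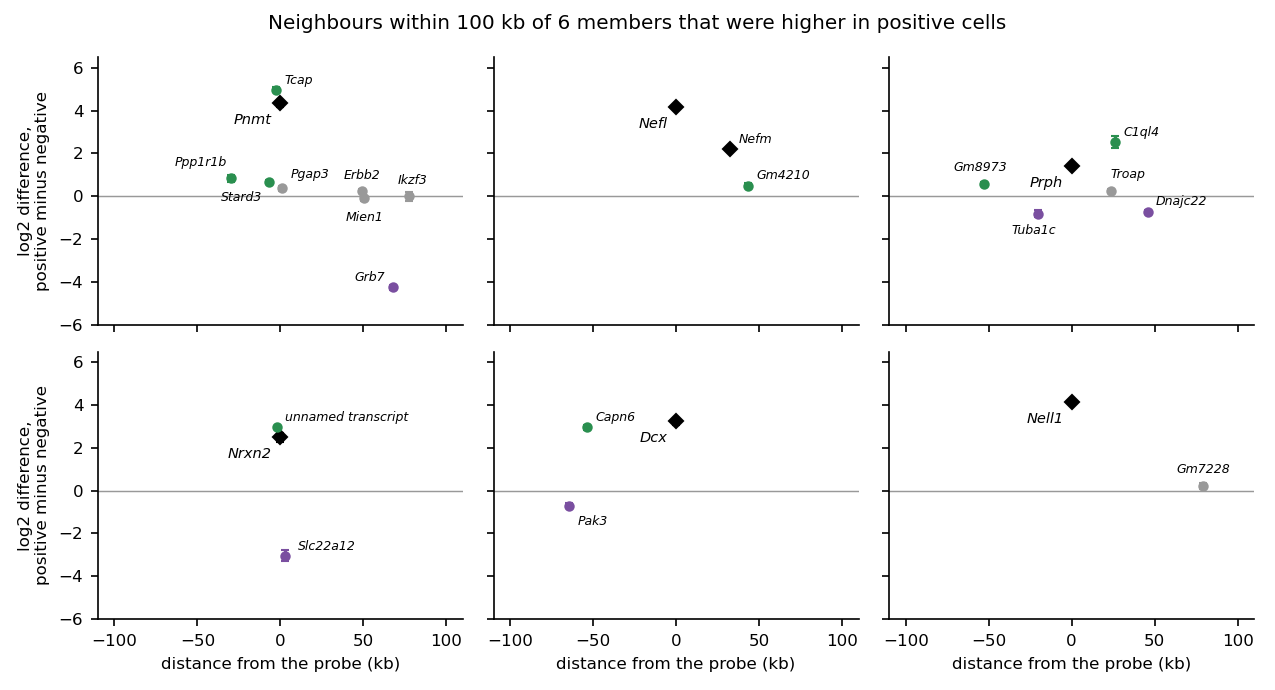
Log2 difference, positive minus negative, against the distance of the neighbour's probe from the member's probe in kilobases, for 6 of the higher members; diamonds are members, circles other genes, coloured green or purple where higher or lower at a limma adjusted p of 0.05 and grey otherwise. Bars are limma standard errors (n = 2 arrays per group). Tcap stands beside Pnmt at 4.96.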

How the data were processed

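Arrays were scanned and quantified with Agilent Feature Extraction, and coordinates refer to mm9, per the file headers. Each deposited scanner file gives a linear intensity for every spot, the processed signal, which the software detrended within the array, and no scaling between arrays is recorded. The series' deposited table gives the same intensity, within 0.01 log2 for 99.8% of probes. Here control and outlier spots were left out, spots of a probe were averaged, and log2 of the processed signal minus the array's 75th percentile over 39395 probes was taken. Probes well above background on both arrays of a group were kept (30012), 26034 probes were named through RefSeq accessions, and a gene was read from its brightest kept probe. The comparison used lmFit and eBayes of limma 3.58.1 under R 4.3.3, with two-sided p-values adjusted by Benjamini-Hochberg over 24150 genes, and was tested on simulated data. All members are named, and from each related list up to 3 genes in each direction with the largest difference past the threshold without overlap, taking the bound where there is one. Some genes that this rule or the marker lists hold are not reported here. The members and the lists were chosen with earlier results of these data known. The 14 alternatives were 4 other normalizations, the deposited table, 2 other filters, the mean of a gene's probes, a trend with robust variance, the replicate block and the omission of each array in turn. The slide and the scan time were the same for every array, so neither could be fitted. Exon and UTR positions of probes and protein sequences were not analysed here.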

Additional observations from a re-analysis of the deposited data

How the results depend on the processing

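The 14 alternatives turned the sign of 9 members, Chgb, Cntn2, Dbh, Elavl2, Elavl3, Nrxn3, Scg3, Stmn4 and Syn1, none of them among the 23 at least 2-fold apart by measured values without overlap. Elavl3 was -0.18 with positive array 2 left out and 2.88 with positive array 1 left out. At least 2-fold under every alternative that kept the gene were 7 higher members (Elavl4, Nefl, Nefm, Pnmt, Dcx, Nrxn2 and Nell1) and 6 lower ones (Stmn2, Gap43, Fabp7, Map2, Nlgn3 and Cntn1). Members 2-fold lower numbered 14, but 7 with normexp and the 75th percentile and 6 with normexp and quantile normalization, in which dim values near background lie closer together. Centring on the array median, which put the median of all genes at 0.41, gave 14577 genes past the threshold in place of 9402, and 23 other neuronal, 3 sympathoadrenal, 8 glial and 11 neurotrophin genes higher. The sympathoadrenal count of higher genes was 1 with quantile normalization, with either normexp setting, with the filter on all 4 arrays, with the mean of probes and with the trend. Without a filter on dim probes 4 repressor genes were higher. With 1 array left out, which leaves 1 group a single array assumed to vary like the other group, 4368 to 5213 genes passed, and the lists held 4 to 11 other neuronal, 2 to 3 glial, 3 to 5 repressor and 3 to 5 neurotrophin genes higher. Egr2 had an adjusted p of 0.0852 without the filter. The replicate numbers are not stated to mark a shared batch; the correlation of replicate 1 minus 2 between groups was 0.22. With the replicate block 8615 genes passed, the members gave 9 higher and 14 lower, and the sympathoadrenal list 1 higher and 9 lower. Dim members, read near background, have the least certain folds.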
